A study of Mus musculus with 30 samples.

Results

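S100a8, S100a9, Retnlg, Camp, Ngp, Ltf, Lcn2, Mmp8, Mmp9 and Elane encode proteins that neutrophils carry in their cytosol or granules or secrete, and the transcripts of these 10 genes were followed in each mouse of the series. They were chosen by the S100a8 and S100a9 levels of these same arrays, which had been seen to be high in the B-cell-deficient JHT mice, so the levels in JHT mice are given here as a description, with no test. A gene was represented by the probe whose accession maps to its symbol, and all 10 genes had at least 1 such probe among the 36717 genes and transcripts of the array. Values are log2 normalized signal, so a difference of 1 is a doubling of signal, and because probes differ in brightness the level of a gene is compared between mice and never with the level of another gene.

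Neutrophils pack their granules in the order in which they mature in the bone marrow. Azurophil (primary) granules, which hold neutrophil elastase (the product of Elane) and myeloperoxidase, form first, specific (secondary) granules with lactoferrin (Ltf), cathelicidin (Camp), neutrophilic granule protein (Ngp) and lipocalin-2 (Lcn2) follow, and gelatinase granules with matrix metalloproteinase 9 (Mmp9) come last, so that transcripts of granule proteins are most abundant in immature cells. S100A8 and S100A9 form the cytosolic heterodimer calprotectin, an alarmin that binds metal ions and signals through TLR4 once released, and they are made in mature neutrophils and in monocytes too. Lcn2, which sequesters bacterial iron carriers, is also induced in astrocytes, endothelium and choroid plexus during inflammation, and few neutrophils are found in healthy brain tissue outside the vessels and the meninges.

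The study asked how the loss of B cells bears on a mouse model of Alzheimer's disease, and RNA of the hippocampus and of the remaining brain (called brain here) of 15 mice aged 15 to 20 months was hybridized to 30 Agilent 1-colour arrays, so that each mouse had 1 hippocampal and 1 brain array. The 3×TgAD group and the 3×TgAD-BKO group each held 3 males and 2 females, while the WT group (3 mice) and the JHT group (2 mice) were female, all labelled with the C57BL/6j strain. 3×TgAD mice carry human APP with the Swedish mutation, mutant human tau and a mutant presenilin 1. JHT mice have a deletion at the JH locus of the immunoglobulin heavy chain and therefore lack mature B cells in the whole body and not in the brain alone, and 3×TgAD-BKO mice, labelled JHT_3xTgAD, join that deletion with the 3 AD alleles. All mice were perfused with PBS after death, before the tissue was taken. The same mouse number stands on 1 hippocampal and 1 brain array with the same genotype and sex, and these were taken as 1 animal. Mice are named by that number: 0, 8 and 9 are the 3×TgAD-BKO males, 6 and 7 the 3×TgAD-BKO females, 1 and 2 the 3×TgAD females, 3, 4 and 5 the 3×TgAD males, 10, 11 and 12 the WT females, and 13 and 14 the JHT females.

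The human APP and tau transgenes are driven by a Thy1 cassette, and Thy1 signal was 17.95 to 18.28 in the hippocampi of mice labelled as carrying them and 16.85 to 17.06 in WT and JHT hippocampi. The arrays followed their labels for sex, and 11 of the 12 marker genes of the hippocampus and of other brain regions that were checked lay on the right side in all 15 mice, the exception being Wfs1 in 7 mice. The hippocampal array of mouse 0 stood apart from the others. Its values had an SD of 0.81 log2 units around the median array, against 0.25 to 0.45 for the other hippocampal arrays, and its brain array had an SD of 0.41 against 0.22 to 0.29 for the other brain arrays. Mouse 0 is high in most of the 10 genes, and values without it are given beside the BKO differences and the tissue comparison. Of the 10 genes, S100a8, S100a9, Camp, Lcn2 and Elane were well above background on all 30 arrays, Retnlg on 28, Mmp9 on 21, Ngp on 15, Ltf on 14 and Mmp8 on 11. In bulk tissue, fewer cells of a type and less RNA in each cell cannot be told apart.

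The genes lie in a few places of the mouse genome (GRCm38). S100a8 (chr3:90669071-90670034) and S100a9 (chr3:90692630-90695721) are neighbours on chromosome 3 with 22595 bases between them. Camp (chr9:109847377-109849456), Ngp (chr9:110419808-110423012) and Ltf (chr9:111019292-111042766) lie within 1195390 bases of each other on chromosome 9. The 250 bases upstream of the start of these 5 genes are shown because they are the alarmin pair and the specific granule genes that share a chromosome. Capitals mark matches on either strand to TTGCNNAA, a form of the site of C/EBP factors, which drive granulocyte maturation, and to GAGGAA, the core of the site of PU.1, the factor that myeloid cells share. The sequences are those of RefSeq on GRCm38.p6, read 5′ to 3′ on the strand of the gene.

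S100a8 (chr3:90668821-90669070): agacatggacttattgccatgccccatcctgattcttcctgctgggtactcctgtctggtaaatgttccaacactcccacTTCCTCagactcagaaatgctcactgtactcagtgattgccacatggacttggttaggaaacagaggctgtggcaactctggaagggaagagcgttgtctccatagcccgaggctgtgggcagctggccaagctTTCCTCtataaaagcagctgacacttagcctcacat
S100a9 (chr3:90695722-90695971): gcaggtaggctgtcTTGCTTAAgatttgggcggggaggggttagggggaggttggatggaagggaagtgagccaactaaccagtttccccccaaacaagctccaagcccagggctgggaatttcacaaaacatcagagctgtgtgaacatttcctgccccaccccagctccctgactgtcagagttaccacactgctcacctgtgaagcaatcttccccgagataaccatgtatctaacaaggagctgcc
Camp (chr9:109849457-109849706): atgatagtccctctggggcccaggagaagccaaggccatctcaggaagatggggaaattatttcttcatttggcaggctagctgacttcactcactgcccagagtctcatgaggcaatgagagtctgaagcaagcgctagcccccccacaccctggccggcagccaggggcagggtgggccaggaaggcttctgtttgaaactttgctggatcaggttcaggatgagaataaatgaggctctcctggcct
Ngp (chr9:110419558-110419807): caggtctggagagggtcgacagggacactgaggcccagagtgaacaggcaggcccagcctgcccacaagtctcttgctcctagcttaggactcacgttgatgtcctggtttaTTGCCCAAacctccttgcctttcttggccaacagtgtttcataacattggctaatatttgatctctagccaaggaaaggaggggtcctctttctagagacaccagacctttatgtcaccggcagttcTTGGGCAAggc
Ltf (chr9:111019042-111019291): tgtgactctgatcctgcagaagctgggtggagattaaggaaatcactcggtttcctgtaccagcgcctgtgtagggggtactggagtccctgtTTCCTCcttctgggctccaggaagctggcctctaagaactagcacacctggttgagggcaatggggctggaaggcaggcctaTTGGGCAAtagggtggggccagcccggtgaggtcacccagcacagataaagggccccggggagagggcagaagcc

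The S100a8 sequence held 2 PU.1 matches and no C/EBP match, and that of S100a9 held 1 C/EBP match and no PU.1 match. Ngp held 2 C/EBP matches, Ltf 1 match to each motif, and Camp neither. A promoter sequence was at hand for 9 of the 10 genes, all but Mmp9. Of these 9, 6 held a C/EBP match and 5 a PU.1 match, while 9.56% and 23.3% of the 32851 promoters of that length in the genome did. A match is a run of letters and was not tested as a binding site.

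The alarmin pair varied over a wide range between mice. S100a8 in the hippocampus was 7.43, 7.21 and 6.80 in the WT mice and 11.62 and 13.38 in the JHT mice. It was 8.64 and 8.30 in the 3×TgAD females and 8.10, 8.29 and 6.23 in the 3×TgAD males. In the 3×TgAD-BKO mice it was 9.25 and 9.19 in the females and 12.31, 12.17 and 7.90 in males 0, 8 and 9. Both JHT mice and the BKO males 0 and 8 thus stood high, while BKO male 9 lay among the 3×TgAD mice. S100a9, the partner of S100A8 in calprotectin, kept the same 4 mice on top, at 13.35 and 15.04 in JHT mice 13 and 14, 14 in BKO male 0 and 13.98 in BKO male 8. The other 11 hippocampi had 8.50 to 11.32.

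In the brain the same 4 mice stood highest for the alarmins, in another order. S100a8 there was 8.46, 7.93 and 7.53 in WT, 11.85 and 13.41 in JHT, 9.37 and 11.15 in 3×TgAD females and 8.98, 9.58 and 7.80 in 3×TgAD males. The 3×TgAD-BKO brains had 9.75 and 10.87 in females and 13.73, 12.61 and 9.62 in males 0, 8 and 9. The highest 4 brains were again those of mice 0, 14, 8 and 13, followed by the 3×TgAD female 2. Over all 30 arrays S100a8 spanned a 181-fold range of signal and S100a9 a 114-fold range.

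Retnlg, which encodes a resistin-like protein secreted by mouse neutrophils, followed the alarmins. In the hippocampus it was 4.70, 4.99 and 4.50 in WT, 9.39 and 9.68 in JHT, and 10.16, 9.77 and 5.93 in BKO males 0, 8 and 9. The BKO females had 6.78 and 6.48, the 3×TgAD females 6.27 and 5.90, and the 3×TgAD males 4.83, 5.66 and 4.41, the last of these, like that of WT mouse 12, not well above background. The 4 mice named for the alarmins were thus again separate from the other 11, at 9.39 or more against 6.78 or less.

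The specific granule genes split the JHT mice. Ltf, encoding the iron-binding protein lactoferrin, was well above background in only 3 hippocampi, at 9.03 in mouse 0, 8.16 in mouse 8 and 10.39 in JHT mouse 14, while JHT mouse 13 read 2.77, within the 2.24 to 4.26 of the other 11 mice. In the brain, Ltf was 4.93, 3.74 and 4.42 in WT, 4.03 and 10.44 in JHT, 4.84 and 8.24 in 3×TgAD females, 4.27, 4.96 and 2.27 in 3×TgAD males, 4.88 and 7.81 in BKO females and 10.53, 9.09 and 6.58 in BKO males. High brains were therefore found in BKO, JHT and 3×TgAD mice alike, and not in WT. Ltf values spanned 313-fold, but the low end lies in values not well above background, so this range is not ranked with those of the other genes.

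Ngp and Camp, a cystatin-like granule protein and the precursor of the antimicrobial peptide cathelicidin, showed the same mice. Ngp in the brain was 9.91 in mouse 0, 9.38 in mouse 14, 7.76 in mouse 8, 7.12 in 3×TgAD female 2 and 6.35 in BKO female 7, whereas JHT mouse 13 read 4.15, not well above background. Camp in the brain was 11.58, 11.40, 10.04, 10.14 and 9.65 in those same mice and 7.25 in JHT mouse 13, at the level of the lowest WT mouse (7.25). In the hippocampus Camp was 10.20, 10.98 and 9.26 in mice 0, 14 and 8 and between 7.09 and 7.77 in the other 12. The 2 Camp probes followed each other with a Pearson r of 0.988 over the 30 arrays.

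Lcn2 was spread differently. In the hippocampus it was 9.96, 8.99 and 9.36 in WT, 10.85 and 12.70 in JHT, 8.47 and 9.42 in 3×TgAD females, 9.34, 11.23 and 9.41 in 3×TgAD males, 11.23 and 10.91 in BKO females and 13.52, 13.74 and 11.72 in BKO males. All 5 BKO mice were at or above 10.91, a level that 1 of the 5 3×TgAD mice reached. In the brain the BKO males had 14.08, 14.95 and 11.56, the BKO females 10.90 and 9.62, the 3×TgAD mice 8.81 to 10.62, the WT mice 9.22 to 10.95 and the JHT mice 10.39 and 12.42. Mouse 8, not mouse 0 or 14, held the highest Lcn2 in both tissues.

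The proteases did not move as 1 group. Mmp8, the collagenase of specific granules, was well above background in the hippocampus of mice 0, 8, 13 and 14 alone, at 6.43, 7.34, 5.34 and 7.47. Mmp9, the gelatinase, was highest in mice 14, 0 and 8 in the hippocampus (6.03, 5.77 and 5.22). It spanned an 8.6-fold range over all arrays, with a low end not well above background. Elane, the elastase of azurophil granules, spanned 5.03-fold. In the hippocampus it was 10.25, 10.23 and 10.53 in BKO males, 10.91 and 11.91 in BKO females, 11.02, 11.70 and 10.92 in 3×TgAD males, 10.33 and 10.03 in 3×TgAD females, 10.70, 10.47 and 11.35 in WT and 10.62 and 10.24 in JHT. Mice 0, 8 and 14 thus lay in the lower part of the Elane range in the hippocampus. In the brain they did not, since Elane was highest in mouse 0 (11.42), and mice 8 and 14 had 10.37 and 10.21 among the 9.58 to 10.70 of the other mice.

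**Figure D1:**
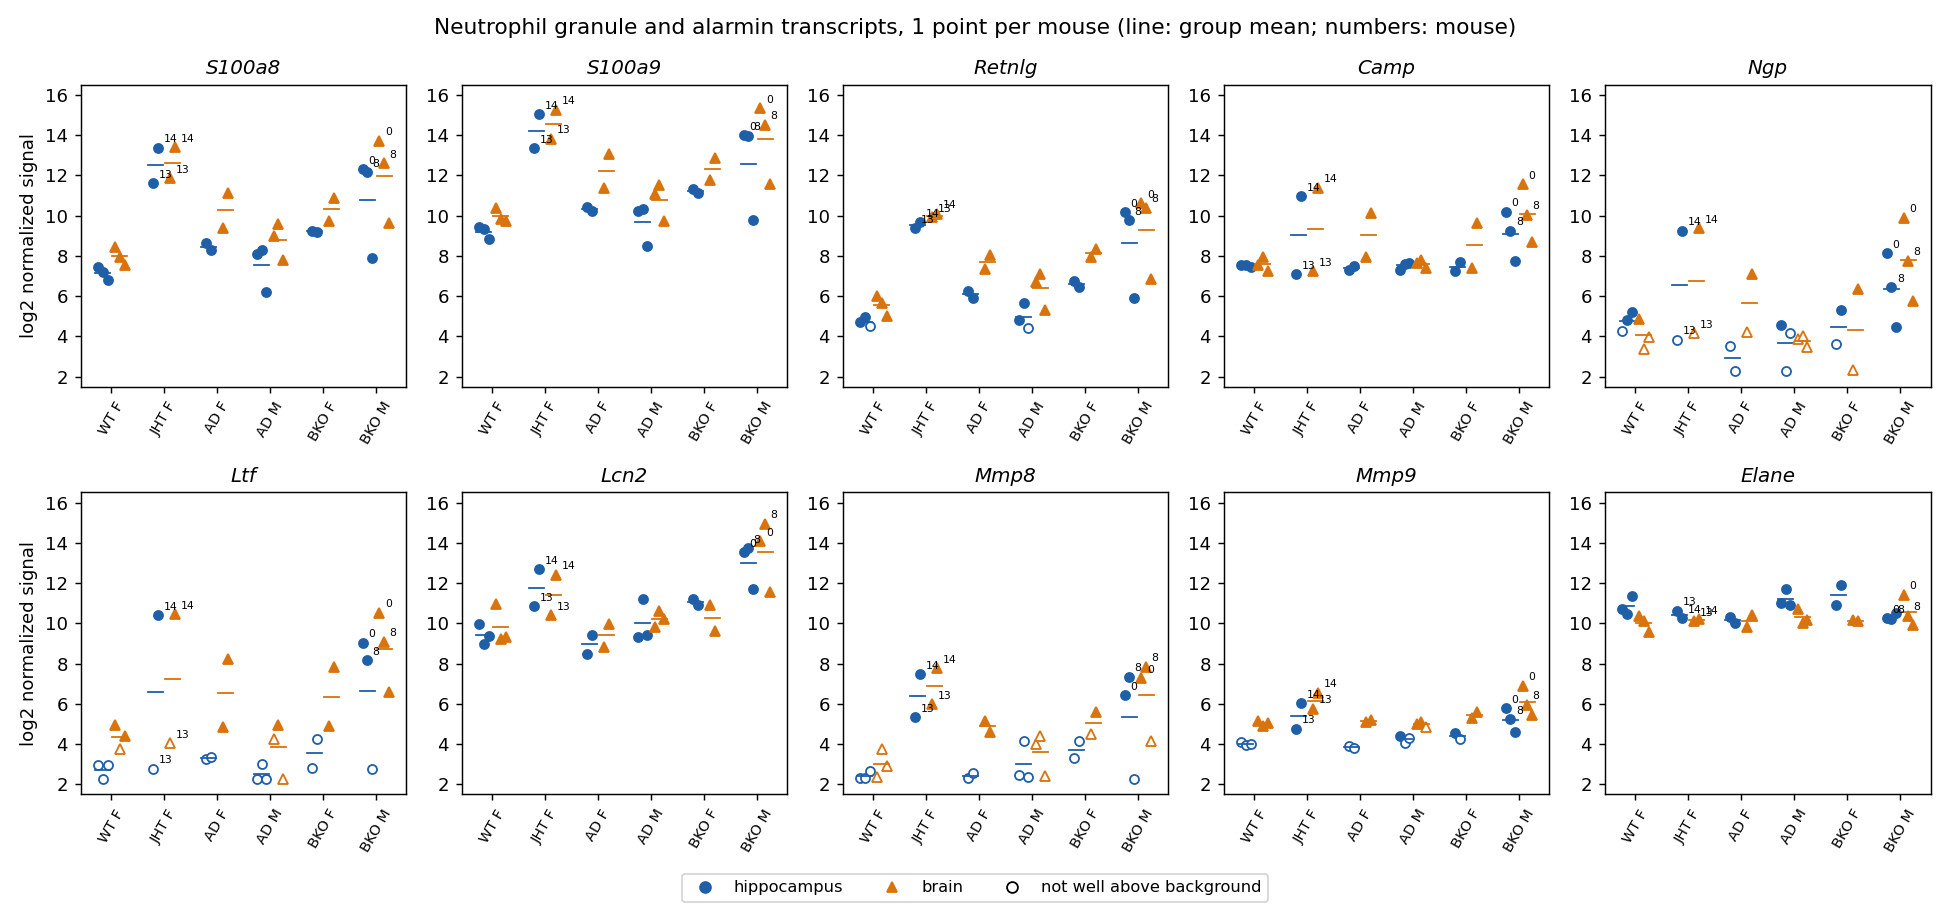
Log2 normalized signal of the 10 genes (vertical axes) in each mouse, by group on the horizontal axis (F, female; M, male; AD, 3×TgAD; BKO, 3×TgAD-BKO), with hippocampus as circles, brain as triangles, group means as lines and open symbols for values not well above background. Mice 0, 8 and 14 were the 3 highest for 9 of the 10 genes in the hippocampus and for 8 of the 10 in the brain, Elane being an exception in both tissues. Mouse 14 is a JHT mouse, the genotype whose high alarmins chose the genes, and the hippocampal array of mouse 0 stood apart. Nothing is read from these counts.

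Beside WT females, JHT females had more S100a8, S100a9, Retnlg, Mmp8 and Mmp9 in both tissues. The group means (SD; 2 JHT mice, 3 WT mice) of S100a8 in the hippocampus were 12.50 (1.24) and 7.15 (0.32), a difference of 5.36 log2 units or 41.0-fold, and the difference in the brain was 4.66 log2 units, 25.2-fold. S100a9 differed by 4.99 and 4.55 and Retnlg by 4.81 and 4.44 log2 units in hippocampus and brain. The JHT and WT mice did not overlap for 6 of the 10 genes in the hippocampus (those 5 and Lcn2), where 13% of all genes were non-overlapping and higher in JHT, and for the 5 in the brain, where 10.4% were. These values chose the genes, and nothing is read from the counts.

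What the choice did not fix is how unlike the JHT mice were. Mouse 14 exceeded mouse 13 by 1.76 log2 units in S100a8 in the hippocampus and by 1.56 in the brain, and by 0.29 and 0.18 in Retnlg. For the specific granule genes the gap was wider. Ltf and Ngp of mouse 13 were not well above background, and against the lowest signal that was, the gap was at least 6.18 log2 units for Ltf in both tissues and at least 5.04 and 5.11 for Ngp, while Camp differed by 3.90 and 4.15. Mouse 13 had no more Camp than WT mice in either tissue. Lcn2 differed by 1.86 and 2.02, Mmp8 by 2.14 and 1.78, Mmp9 by 1.27 and 0.81, and Elane by -0.39 and 0.12. Without mouse 14, the JHT value minus the WT mean in the hippocampus was -0.43 for Camp and 4.48 for S100a8, 22.3-fold, and Ngp was not well above background. With the not-detected WT values set to the lowest signal well above background, mean Mmp8 of JHT mice was at least 3.75-fold higher than in WT in the hippocampus and at least 5.81-fold in the brain, and mouse 13 alone was at least 1.79-fold and 3.14-fold higher.

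**Figure D2:**
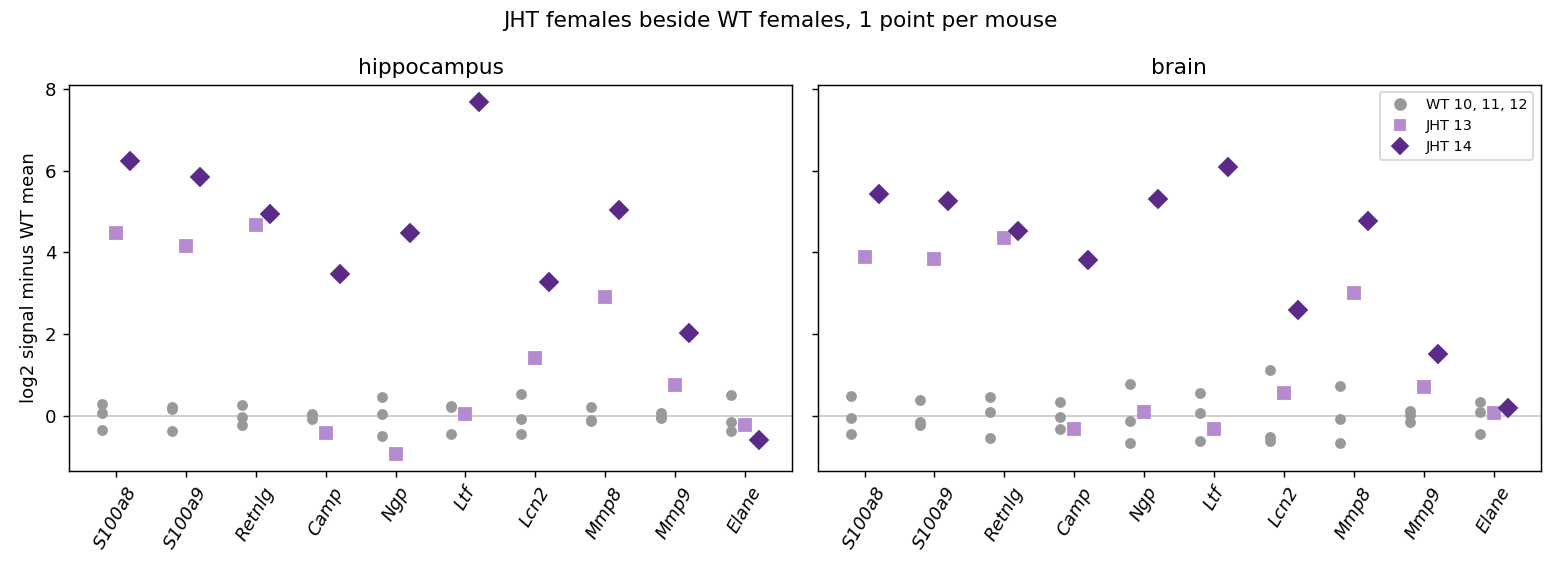
Log2 signal minus the WT mean of the tissue (vertical axis) for the 10 genes in the hippocampus (left) and brain (right) of the 3 WT females (grey circles), JHT mouse 13 (light squares) and JHT mouse 14 (dark diamonds). The JHT mice lie close together for Retnlg, 0.29 log2 units apart in the hippocampus, and far apart for Ltf, at least 6.18 log2 units.

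Some granule genes outside the 10 were also unlike in the JHT mice. Mpo, the azurophil peroxidase, was 9.27 in the hippocampus and 9.56 in the brain of mouse 14, and 5.66 and 3.84 in mouse 13, the last not well above background. Cebpe, the factor on which specific granules depend, read 6.59 and 7.18 in mouse 14 and 3.32 and 3.52, not well above background, in mouse 13. Ctsg, cathepsin G of azurophil granules, was 8.45 and 7.35 in the hippocampus of mice 14 and 13 but 9.03 and 3.72 in the brain, the last not well above background. The genes named here were chosen after their values were seen.

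Other blood and tissue markers also differed between the JHT mice. The mean log2 level of 8 red cell genes was 10.75 in the hippocampus of mouse 13 and 12.03 in that of mouse 14, and 11.52 to 11.99 in WT mice, and in the brain 11.04 and 12.05 against 11.55 to 11.87. Mouse 14 thus lay above mouse 13, as it did in the granule genes, and mouse 13 lay below the WT range in both tissues. The mean of 6 monocyte and macrophage genes was 7.13 and 7.45 in the hippocampi of mice 13 and 14 against 5.74 to 6.05 in WT, and 7 and 7.86 in their brains against 6.57 to 7. The mean of 8 choroid plexus genes was 13.49 and 12.56 in JHT hippocampi against 7.11 to 8.28 in WT, whereas in the brain it was 10.90 and 11.36 against 10.93 to 11.70. The part of these markers in the JHT levels was not tested.

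Between 3×TgAD-BKO and 3×TgAD mice, all 10 genes had a higher mean of the sex-specific differences in BKO mice in both tissues, and none passed limma's threshold of an adjusted p of 0.05. Across all genes, 1.02% passed in the hippocampus and 2.64% in the brain. The median difference over the 10 genes was 1.95 log2 units in the hippocampus and 1.53 in the brain (1.58 and 1.19 without mouse 0), beside 0.01 and 0.00 over all genes. Unadjusted p-values were under 0.05 for 5 of the 10 genes in the hippocampus (10.5% of all genes) and for 3 in the brain (14.5%). The study names no test for its arrays. The t-test of its methods, with a Benjamini-Hochberg adjustment added here, called none of the 10 either. Unadjusted, that t-test called some of them in both tissues, with counts given under the dependence on the processing.

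Lcn2 came nearest. Its difference in the hippocampus was 2.57 log2 units (SE 0.55, limma adjusted p = 0.0651), with group means of 12.23 (SD 1.32) in 5 BKO mice and 9.58 (SD 1.01) in 5 3×TgAD mice, and in the brain 2.09 (SE 0.69, adjusted p = 0.179). Retnlg differed by 2.10 (SE 0.69, adjusted p = 0.265) and 1.68 (SE 0.68, adjusted p = 0.282), and S100a8 by 2 (SE 0.82, adjusted p = 0.413) and 1.63 (SE 0.76, adjusted p = 0.369) in limma's test. No gene of the 10 separated all BKO from all 3×TgAD mice in the hippocampus, where 1.46% of all genes did so with BKO higher. Mmp9 in the brain was the only one of the 10 whose BKO and 3×TgAD mice did not overlap over both sexes, as did 2.42% of all genes in that direction, at a difference of 0.71 (SE 0.25, limma adjusted p = 0.211). Without mouse 0, whose arrays stood apart, the differences in the hippocampus were 2.43 for Lcn2 (limma adjusted p = 0.118), 1.71 for Retnlg (0.361) and 1.62 for S100a8 (0.559). In the brain they were then 1.95 for Lcn2 (limma adjusted p = 0.27), 1.35 for Retnlg (0.397), 1.19 for S100a8 (0.485) and 0.51 for Mmp9 (0.202), and Elane turned from 0.15 to -0.06 (0.927).

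The result turned on BKO male 9. Without that mouse, 5 of the 10 genes passed limma's threshold in the hippocampus, where 1.44% of all genes then did, and 2 in the brain, where 3.59% did, and S100a8 in the hippocampus differed by 2.72 (SE 0.47, adjusted p = 0.0237). Mouse 9 also lay on another slide than the 3×TgAD mice in both tissues, as did mouse 8 in the hippocampus and mouse 0 in the brain. With slide as a block the share of all genes that passed rose to 11.3% in the hippocampus and 6.05% in the brain. Under it, 3 of the 10 genes passed in the hippocampus, Lcn2 (2.83, limma adjusted p = 0.0237), Retnlg (2.87, adjusted p = 0.0337) and Mmp9 (1.04, adjusted p = 0.0362), and 2 passed in the brain, Retnlg (2.23, adjusted p = 0.0203) and Lcn2 (2.80, adjusted p = 0.0408). Within slide 1, which holds all 3×TgAD hippocampi but only BKO mice 0, 6 and 7, 7 of the 10 passed limma's threshold, as did 9.15% of all genes, and within slide 3, which holds all 3×TgAD brains and those of BKO mice 6, 7 and 8, 2 did, as did 5.19% of all genes. In these fits the comparison rests on the BKO mice that share a slide with 3×TgAD mice, so the parts of the slide and of mouse 9 cannot be told apart.

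Apart from Elane in the hippocampus, the differences were wider in males than in females, although the contrast between the sexes passed its test for none of the 10 genes. In the hippocampus, 9 of the 10 genes were higher in BKO males and Elane was lower, and in the brain all 10 were higher, with medians of 2.78 and 2.97 log2 units (2 and 2.30 without mouse 0). None passed limma's threshold, which 0.847% of all genes passed in the hippocampus and 0.961% in the brain, while unadjusted p-values were under 0.05 for 7 genes in the hippocampus (18.2% of all genes) and 9 in the brain (11.5%). Retnlg differed by 3.65 log2 units in the hippocampus (SE 0.88, limma adjusted p = 0.084) and by 2.91 in the brain (SE 0.85, adjusted p = 0.199). Lcn2 differed by 3.00 (SE 0.69, limma adjusted p = 0.0771) and 3.31 (SE 0.88, adjusted p = 0.146), and S100a8 by 3.25 (SE 1.04, adjusted p = 0.154) and 3.21 (SE 0.96, adjusted p = 0.213). With slide as a block the male difference rests on the 1 BKO male that shares a slide with 3×TgAD males, mouse 0 in the hippocampus, whose array stood apart, and mouse 8 in the brain, and its error on the assumption that such a lone mouse varies like the other groups. In that fit the male call changed for 4 genes in the hippocampus, where 15.4% of all genes then passed, S100a8 (4.77, limma adjusted p = 0.0484), Retnlg (5.20, adjusted p = 0.0115), Lcn2 (3.53, adjusted p = 0.0438) and Mmp9 (1.52, adjusted p = 0.0333). In the brain, where 2.89% of all genes then passed, it changed for Retnlg (4.02, limma adjusted p = 0.015) and Lcn2 (4.73, adjusted p = 0.0415).

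For the dim granule genes the male comparison gives a bound. Ltf in the hippocampus was at least 4.63-fold and Mmp8 at least 1.88-fold higher in BKO males, and in the brain Ngp was at least 10.3-fold (limma adjusted p = 0.335) and Mmp8 at least 3.75-fold higher (adjusted p = 0.264). The hippocampal bounds rest on mice 0 and 8, since mouse 9 read 2.76 for Ltf and 2.28 for Mmp8, not well above background, and so overlapped with or lay below the 3×TgAD males. The brain bound for Mmp8 rests on mice 0 and 8 too. Mouse 9 read 4.14 there, not well above background and within the 2.39 to 4.41 of the 3×TgAD males. Without mouse 0 the bounds were 2.03-fold for Ltf and 1.29-fold for Mmp8 in the hippocampus and 4.98-fold for Ngp and 2.78-fold for Mmp8 in the brain. In the brain, 7 of the 10 genes did not overlap between BKO and 3×TgAD males and were higher, against 7.75% of all genes, and in the hippocampus 4 were (Retnlg, Camp, Lcn2 and Mmp9), against 11.2%, while Elane did not overlap and was lower, as were 9.19% of all genes. Without mouse 9, 5 of the 10 genes passed limma's threshold in the hippocampus and 6 in the brain, beside 4.03% and 1.75% of all genes, and without mouse 0 none did in either tissue, beside 0.607% and 0.665%. Without mouse 0 the male difference of Retnlg was 2.88 in the hippocampus (limma adjusted p = 0.18) and 2.25 in the brain (adjusted p = 0.491). That of Lcn2 was 2.74 (limma adjusted p = 0.17) and 3.04 (adjusted p = 0.363), and that of S100a8 was 2.49 (adjusted p = 0.292) and 2.33 (adjusted p = 0.51).

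Females gave smaller values. In the hippocampus all 10 genes were higher in BKO females, with a median difference of 0.82 log2 units, and 8 of the 10 did not overlap, against 24.6% of all genes, although neither group had Mmp8 or Ltf well above background and no 3×TgAD female had Ngp or Mmp9 well above it. None passed limma's threshold (0.37% of all genes did), and 2 had an unadjusted p under 0.05 (16.4% of all genes), Lcn2 with 2.13 (SE 0.85, adjusted p = 0.255) and Elane with 1.24 (SE 0.38, adjusted p = 0.186). In the female brain 7 genes were higher and 3 lower, with a median of 0.08. None passed limma's threshold there or at an unadjusted p of 0.05 (1.12% and 12.9% of all genes), and 1 did not overlap (Mmp9, 31.6% of all genes). The high Ltf, Ngp and Camp of 3×TgAD female 2 lay above the values of both BKO females there.

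The difference between the sexes was tested as a contrast of the female and male changes, and none of the 10 genes passed limma's threshold in either tissue (0.0245% of all genes in the hippocampus, 0.101% in the brain), while 2 in the hippocampus (21.2% of all genes) and 1 in the brain (8.75%) had an unadjusted p under 0.05. Elane in the hippocampus had the lowest adjusted p, with a female change 2.11 log2 units above the male change (SE 0.49, limma adjusted p = 0.0732), and it was higher in BKO females and lower in BKO males. It passed with slide as a block (2.20, limma adjusted p = 0.0441, beside 13.4% of all genes), where the male change rests on mouse 0 alone, and without mouse 9 (2.21, adjusted p = 0.0495, beside 4.56%), and was 2.07 without mouse 0 (adjusted p = 0.0768). Retnlg in the hippocampus differed the other way by -3.11 (SE 1.39, limma adjusted p = 0.23) and Ngp in the brain by -5.36 (SE 2.39, adjusted p = 0.569). Leaving out a mouse moved Retnlg from -2.34 (without mouse 0, limma adjusted p = 0.308) to -4.46 (without mouse 9, adjusted p = 0.0076) and Ngp from -3.35 to -7.37. The change also did not differ between hippocampus and brain past limma's threshold for any of the 10 genes (0.0899% of all genes did), 0 had an unadjusted p under 0.05 (6.03% of all genes) and adjusted p-values ran from 0.965 to 0.997.

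**Figure D3:**
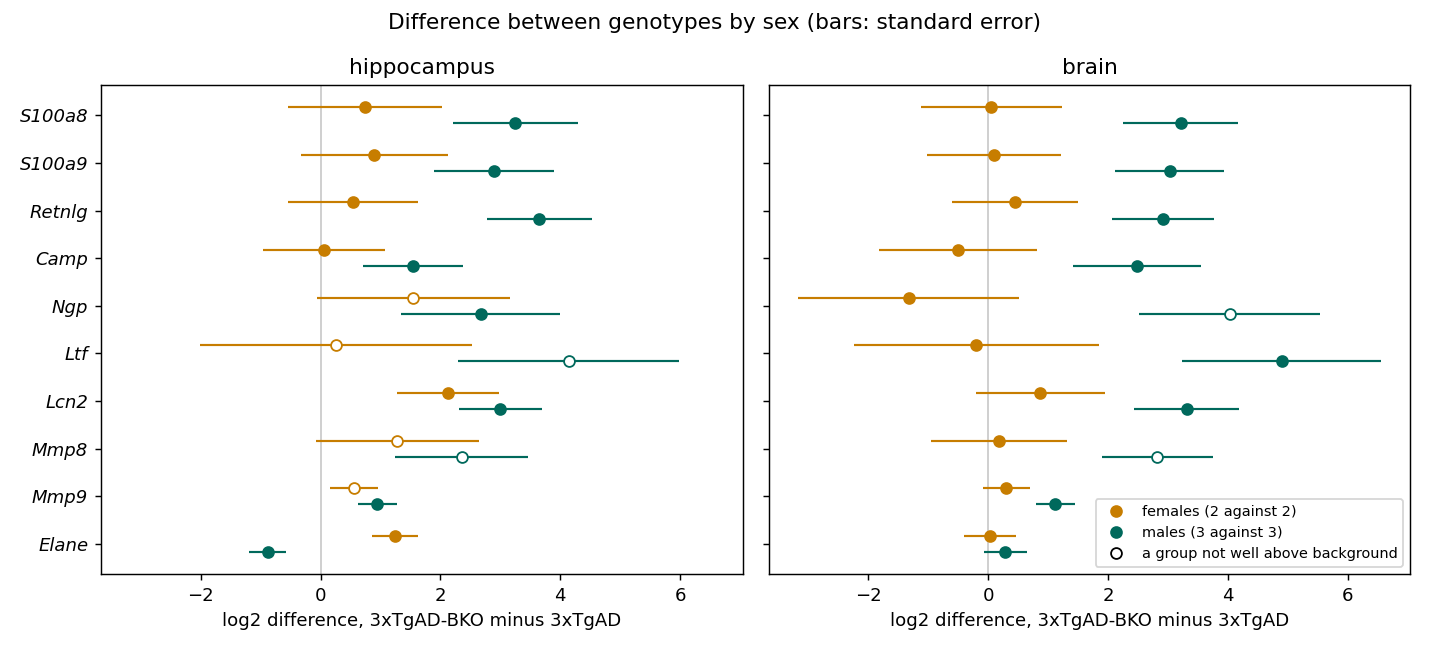
Log2 difference between 3×TgAD-BKO and 3×TgAD mice (horizontal axis) for the 10 genes (vertical axis) in hippocampus and brain, for females (2 against 2) and males (3 against 3), with bars for the standard error and open points where no array of a group was well above background. In males S100a8 differed by 3.25 and 3.21 log2 units in the 2 tissues, and no difference passed the threshold on the adjusted p.

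Other markers moved with the BKO groups. Serpina3n, an acute-phase gene of reactive astrocytes, was 12.37 to 13.62 in BKO hippocampi and 10.10 to 10.56 in 3×TgAD hippocampi, a difference of 2.67 (SE 0.23, limma adjusted p = 0.000302), and 2.86 in the brain (SE 0.26, adjusted p = 0.000205). Of 10 genes listed as acute-phase or as other tissue sources of Lcn2, 3 rose in the hippocampus, Serpina3n, Lrg1 (2.25, limma adjusted p = 0.0232) and Cp (1.56, adjusted p = 0.0336), and Serpina3n alone rose in the brain, where 1.02% and 2.64% of all genes passed. JHT mice had Serpina3n at 13.04 and 13.32 in the hippocampus and WT mice at 9.76 to 10.45. All hippocampi with the JH deletion thus lay above all those without it. The source of this split by genotype was not tested. Unlike the granule genes, Serpina3n was about as high in BKO male 9 (12.37) and in BKO females 6 and 7 (12.59 and 13.62) as in males 0 and 8 (13.12 and 13.19).

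Cldn5, the tight junction gene of vessel endothelium, also rose in BKO mice, by 1.16 (SE 0.16, limma adjusted p = 0.00812) in the hippocampus and by 1.05 (SE 0.18, adjusted p = 0.0125) in the brain, 1 of 8 genes of meninges and vessels, whose median was 0.69 and 0.31. Cldn5 was 12.95 to 13.65 in BKO, 11.77 to 12.58 in 3×TgAD and 12.93 to 13.21 in WT hippocampi, and was lower in 3×TgAD than in WT females there by -1.22 (SE 0.23, limma adjusted p = 0.0463). In that comparison 0.746% of all genes passed, and the groups lay on different slides, so genotype and slide cannot be told apart. In males, where 0.847% of all genes passed, 1 of 11 other S100 and lipocalin genes did in the hippocampus, S100a1, which fell by 0.63 (SE 0.12, limma adjusted p = 0.048), and its contrast between the sexes did not pass (adjusted p = 0.0732). The striatal receptor gene Drd2, 1 of 6 genes of brain regions outside the hippocampus, fell by 1.21 in males (SE 0.17, limma adjusted p = 0.0117), and its contrast did not pass either (adjusted p = 0.0732).

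The mean of 6 monocyte and macrophage genes was 6.56 to 8.44 in BKO and 5.20 to 6.56 in 3×TgAD hippocampi, and 6.82 to 7.82 and 6.70 to 7.26 in the brains. The receptor Ccr2 of that list, which marks blood-derived monocytes, rose in the BKO brain by 1.66 (SE 0.31, limma adjusted p = 0.0198). No other of these 6 genes passed there, where the list had a median of 0.28 and 2.64% of all genes passed. In the hippocampus none of the 6 passed, at a median of 1.39. Red cell genes had means of 12.23 and 10.62 in the hippocampi of mice 0 and 8, and 10.99 to 12.08 in 3×TgAD mice. Platelet genes had 7.33 to 7.86 in BKO and 6.73 to 7.24 in 3×TgAD hippocampi. The part of monocytes, platelets, vessels or retained blood in these values was not tested.

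3×TgAD females were set beside WT females, a comparison that cannot isolate the AD alleles. The paper states that females of the WT strain were purchased, while its 3×TgAD mice, called congenic, were bred at its own institute. Origin, and any difference in genetic background, therefore cannot be told apart from the AD alleles. Between these groups, none of the 10 genes passed limma's threshold, which 0.746% of all genes passed in the hippocampus and 1.15% in the brain, and 0 and 1 had an unadjusted p under 0.05 (12% and 11% of all genes). S100a8 differed by 1.33 (SE 1.17, limma adjusted p = 0.772) in the hippocampus and by 2.29 (SE 1.08, adjusted p = 0.483) in the brain. S100a9 differed by 1.13 (SE 1.12, limma adjusted p = 0.818) and 2.23 (SE 1.02, adjusted p = 0.465), and Retnlg by 1.36 (SE 0.98, adjusted p = 0.69) and 2.12 (SE 0.96, adjusted p = 0.456). The brain differences rested in part on female 2, and without that mouse they were 1.40 for S100a8, 1.37 for S100a9 and 1.77 for Retnlg. Both 3×TgAD females were above all 3 WT females for these 3 genes in both tissues, for Ltf also in the hippocampus, though at values not well above background (4 of the 10 genes, 18.8% of all genes), and for Camp and Mmp8 also in the brain (5 of the 10, 17.3%). In the hippocampus they were below all WT females for Ngp, Mmp9 and Elane (18.8% of all genes in that direction), although Mmp9 was well above background in neither group and Ngp in no 3×TgAD female, and the median difference of the 10 genes there was -0.05, against 1.74 in the brain. The groups lay on different slides in both tissues, and with slide as a block, which joins them through BKO males alone, these 6 differences turned negative (S100a8 -0.95 and -0.70, S100a9 -0.99 and -0.74, Retnlg -0.96 and -1.41).

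The brain held more of most of these transcripts than the hippocampus of the same mouse. S100a8, S100a9 and Retnlg were higher in the brain in 15 of 15 mice, Camp in 13, Lcn2 in 8 and Elane in 3. Of the mice in which at least 1 tissue was well above background, the brain was higher in 14 of 14 for Mmp9, 11 of 11 for Ltf, 7 of 7 for Mmp8 and 7 of 10 for Ngp. The median excess of the brain over the hippocampus in a mouse was 0.88 log2 units for S100a8 and 0.93 for S100a9. Over the mice well above background in both tissues it was 1.06 for Retnlg (13 mice), 0.74 for Mmp9 (7 mice) and 0.93 for Ltf (3 mice). Elane, the azurophil protease, went the other way with a median of -0.52.

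In limma's test over the 13 mice other than JHT, 5 of the 10 genes differed between the tissues, while 49.8% of all genes did, 4 of them lower in the hippocampus (25.3% of all genes) and 1 higher (24.5%). That fit treated the hippocampal and brain arrays of a mouse as unrelated, and fits with the mouse as a block are given below. Lower in the hippocampus were Mmp9 by -0.99 (SE 0.16, limma adjusted p = 2.8e-05), Retnlg by -1.21 (SE 0.44, adjusted p = 0.0265), S100a9 by -1.22 (SE 0.48, adjusted p = 0.0424) and Ltf by -2.22 (SE 0.89, adjusted p = 0.044), and Elane was higher by 0.57 (SE 0.17, adjusted p = 0.00742). S100a8 (-1.23, limma adjusted p = 0.0509), Mmp8 (-1.21, 0.0591), Camp (-0.78, 0.203), Ngp (-0.70, 0.454) and Lcn2 (-0.16, 0.78) did not pass. Mmp9 and Elane passed whichever mouse was left out, while the other 3 calls did not hold throughout. The count fell to 2 without mouse 2, 3, 7 or 10 and to 3 without mouse 4, 5, 6, 11 or 12, and to 3 with 75th percentile scaling, where Retnlg and Ltf did not pass. Without mouse 0 the 5 stayed past the threshold and S100a8 joined them (-1.21, limma adjusted p = 0.044), beside 53.3% of all genes. With slide as a block 2 of the 10 passed, Retnlg and Mmp9, beside 17.8% of all genes, while S100a9 (-4.16, SE 1.55, limma adjusted p = 0.0767) and Ltf (-6.62, SE 3.30, adjusted p = 0.194) had larger differences with wider errors and no longer did, and Elane turned to -0.44 (SE 0.55, adjusted p = 0.682). With the mouse as a random block, 7 genes passed, as S100a8 (-1.23, limma adjusted p = 0.0409) and Mmp8 (-1.21, adjusted p = 0.0479) joined the 5. With it as a fixed block, chosen after seeing the data, 7 genes passed as well, since S100a8 (-1.20, limma adjusted p = 6.03e-05), Mmp8 (-1.11, adjusted p = 0.00106) and Camp (-0.69, adjusted p = 0.0214) then did and Elane (0.56, adjusted p = 0.0582) did not. Tissue and slide overlapped in 1 array alone, the brain of mouse 0, so their parts in this difference can hardly be told apart.

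Counts of list genes outside the 10 in that comparison are to be read against the 25.3% of all genes that were lower and the 24.5% that were higher. Of 7 measured genes of specific and gelatinase granules, 2 were lower in the hippocampus and none higher, and of 12 genes of the neutrophil surface and cytosol, 3 were lower, among them the formyl peptide receptor gene Fpr2 by -1.96 (limma adjusted p = 9.68e-05) and the decoy receptor gene Il1r2 by -1.56 (adjusted p = 3.68e-05), and 2 were higher, the receptor genes Csf3r by 0.44 and Trem1 by 0.48. Of 11 genes of alarmin receptors and their signalling, 5 were lower, Il1b by -1.25 (limma adjusted p = 0.00371), Tlr2 by -0.91 (adjusted p = 0.000292) and Tlr4 by -0.48 (adjusted p = 0.00535) among them, and none was higher. Choroid plexus genes were lower in 6 of 8 cases, with a median of -2.01, and 6 of 8 microglial genes were higher. Of the 6 monocyte and macrophage genes well above background on an array, 5 were lower and none was higher. Of 9 regulators of granulopoiesis, Cebpa, Cebpb and Cebpd were higher in the hippocampus.

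Hippocampal and brain levels went together for the alarmins, Retnlg and Lcn2, and less closely for other genes. Over the 13 mice other than JHT, the hippocampal and brain values correlated with a Pearson r of 0.94 for S100a8 (Spearman rho 0.91), 0.93 for S100a9, 0.96 for Retnlg (rho 0.92) and 0.93 for Lcn2, while the median over 14896 genes was 0.10 and the middle 90% ran from -0.51 to 0.75. These are descriptions over mice that share genotype, and both arrays of a mouse share the animal and the perfusion. Without mice 0 and 8, which lay farthest out, r was 0.82 for S100a8 and 0.90 for Retnlg, and on deviations from the group means it was 0.86 and 0.93. The relation was weaker for Camp, with r 0.79 and rho 0.55, and rested there on those mice, since r without them was 0.35. Mmp9 and Mmp8 likewise fell from r 0.89 and 0.86 to 0.39 and 0.51 without mice 0 and 8, and Ngp from 0.60 to 0.21 without mice 0 and 4. Ltf had r 0.84, and 0.77 without mice 0 and 8. Of the 13 hippocampi, Mmp8 and Ltf were well above background in mice 0 and 8 alone, so their r without these mice describes undetected signal. Many Mmp9 and Ngp values were not well above background either. The 3×TgAD female 2 was high in the brain and not in the hippocampus for Camp (10.14 and 7.50), Ngp (7.12 and 2.30) and Ltf (8.24 and 3.33). Elane had r -0.37.

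**Figure D4:**
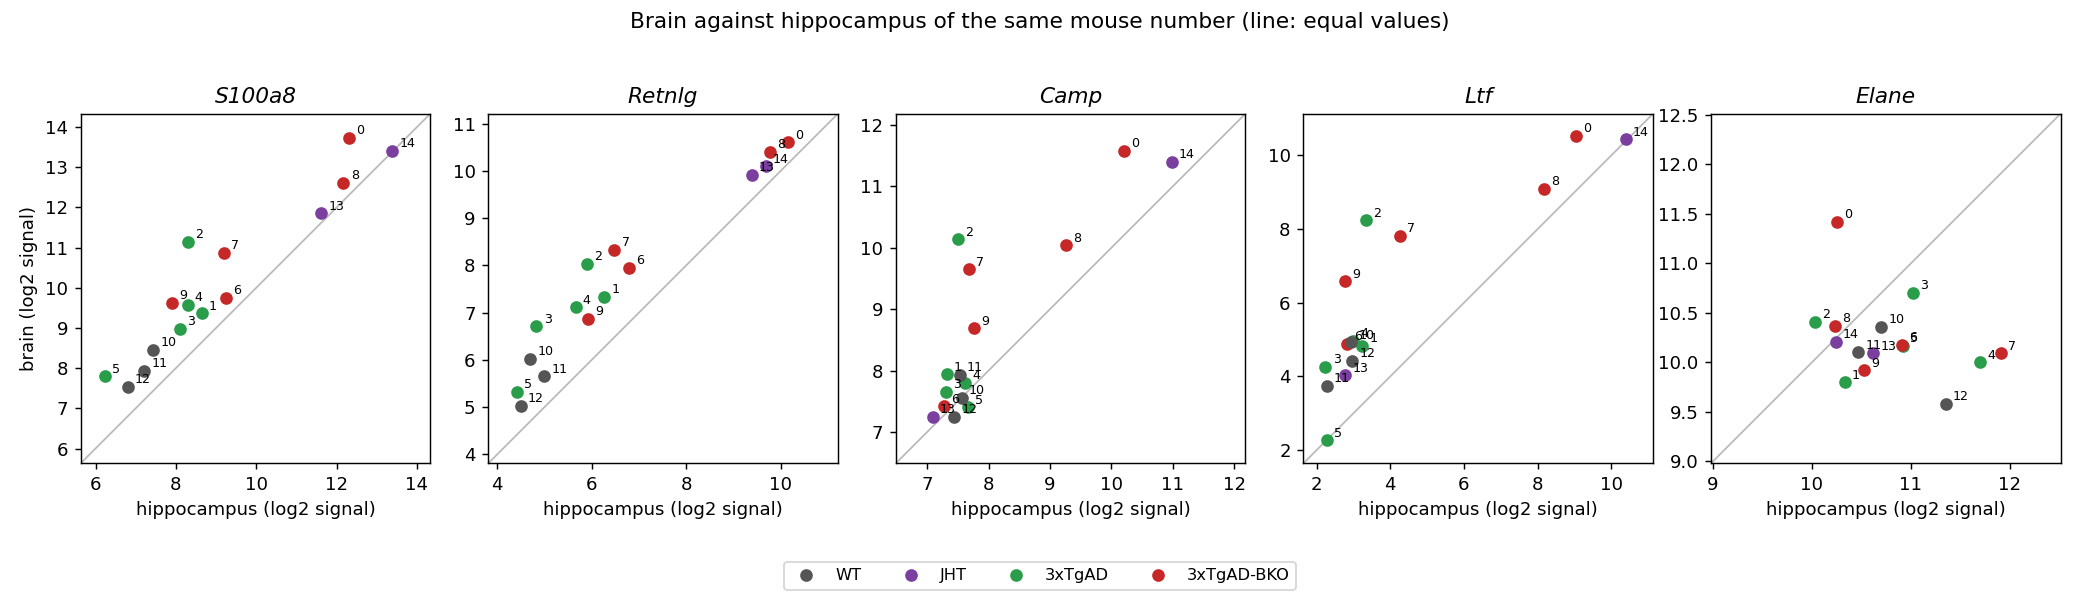
Log2 signal in the brain (vertical axis) against that in the hippocampus of the same mouse number (horizontal axis) for S100a8, Retnlg, Camp, Ltf and Elane, coloured by genotype, numbered by mouse and with a line at equal values. For S100a8 and Retnlg all 15 mice lie above the line, and for Elane 12 lie below it.

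Among themselves, the alarmins and Retnlg followed each other most closely, and S100a8 and Retnlg had r 0.98 in both tissues. S100a8 and S100a9 correlated with an r that rounds to 1 in both tissues over the 13 mice (Spearman rho 0.98 and 0.99), Camp and Ltf with r 0.95 in both (rho 0.48 in the hippocampus, where Ltf was well above background in 2 of the 13 mice, and 0.80 in the brain), and Camp and Ngp with r 0.80 in the hippocampus (rho 0.50) and 0.96 in the brain (rho 0.82). Between the alarmins and the granule genes, S100a8 had r 0.82 with Camp (rho 0.22) and 0.60 with Ngp (rho 0.21) in the hippocampus, and 0.92 (rho 0.84) and 0.87 (rho 0.72) in the brain. S100a8 and Elane had r -0.32 in the hippocampus and 0.66 in the brain. The genes most like the mean of S100a8 and S100a9 in the hippocampus, of 15118 ranked by r over 13 mice, were Retnlg (0.98), Csf2rb (0.97), a receptor subunit for IL-3, IL-5 and GM-CSF, Wfdc17 (0.97), Lyz1 (0.96), a lysozyme, and Pirb (0.95), an inhibitory receptor of myeloid cells, and 0.146% of genes had r over 0.9. In the brain they were Wfdc21 (0.99), Retnlg (0.98), Hp (0.98), the gene of haptoglobin, Ltf (0.95) and Ifitm6 (0.95), of 15665 genes. Lcn2 ranked 99 and 92 in the hippocampus and brain, Camp 110 and 8, and Elane 12300 and 334. The ranking used Pearson r alone and was not repeated without mice 0 and 8. Hippocampal Csf2rb, for example, was 9.60 and 9.74 in those mice, 7.40 in BKO male 9 and 6.91 to 7.53 in 3×TgAD mice.

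Genes of neutrophil lists that were not among the 10 were compared with them mouse by mouse. Chil3, the chitinase-like Ym1, was 9.72, 9.94, 7.60 and 12.17 in the hippocampi of mice 0, 8, 13 and 14 and 4.93 to 7.06 in WT. Mpo in the brain was 8.76 in mouse 0, 7.59 in mouse 8, 9.03 in 3×TgAD female 2, 7.57 in BKO female 7 and 9.56 in mouse 14, and 5.82 or less in the other mice, the same mice in which Camp, Ngp and Ltf were high. In the hippocampus of female 2, Mpo was 5.76 and Camp 7.50, both within the range of the other 3×TgAD hippocampi. Csf3r, the receptor of granulocyte colony-stimulating factor, was 14.89 to 16.40 on all 30 arrays and did not follow the mice with high granule transcripts. None of the 22 genes of the azurophil, specific and gelatinase or surface lists outside the 10 passed limma's threshold between BKO and 3×TgAD mice in either tissue, where 1.02% and 2.64% of all genes did, so that a list of this size is not set apart by it.

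**Figure D5:**
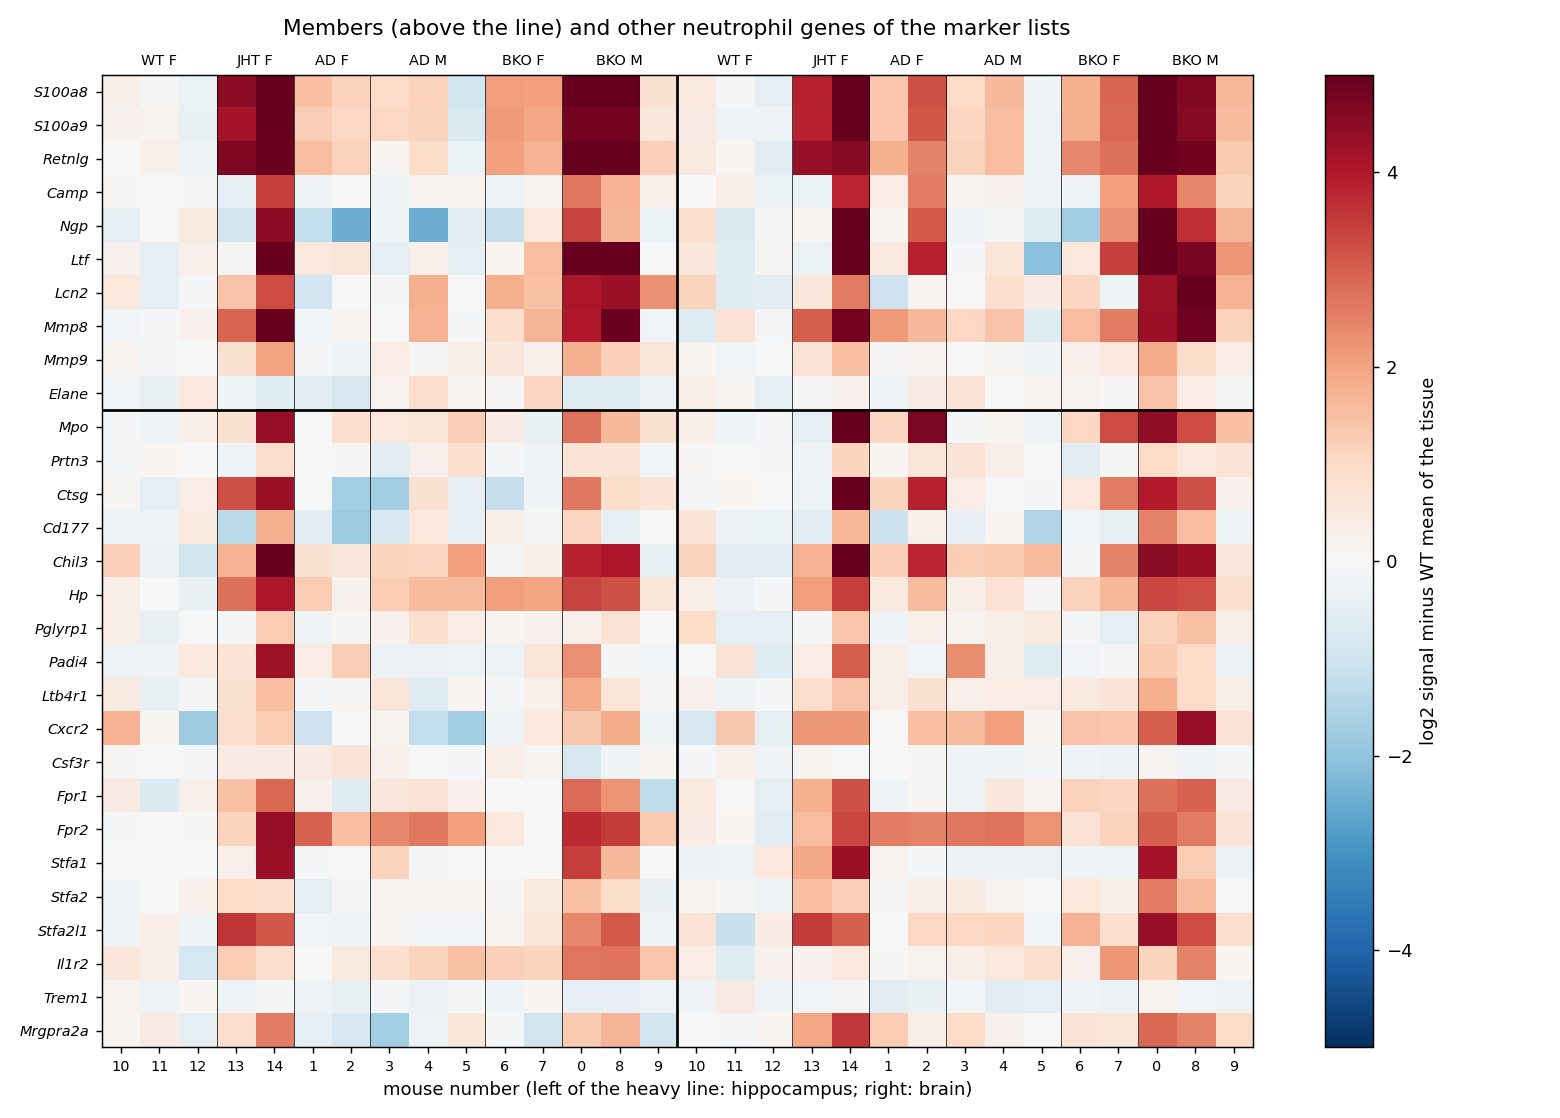
Log2 signal minus the WT mean of the tissue (colour, red higher and blue lower, cut at 5) for the 10 genes above the heavy horizontal line and 19 other genes of the neutrophil lists below it (rows) in the 15 hippocampi and 15 brains (columns, mouse numbers). Mice 0, 8 and 14 are red for most granule genes in both tissues, while mouse 13 is red for S100a8, S100a9 and Retnlg and pale for Camp.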

How the data were processed

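Cy3-labelled RNA of PBS-perfused mice was read on Agilent 1-colour arrays. The authors deposited scanner files (Feature Extraction 12.0.3.1, array annotation mm9) with the processed intensity of each spot, background-subtracted and detrended with no normalization between arrays, and the median intensity of spots and their local background. They also deposited a table of scores, which a comparison with the scanner files showed to be Z scores of log10 intensity within each array (largest median absolute difference 0.00254). Processing followed the steps of the study's methods, but started from the processed and not the raw intensity. Spots marked as controls (3671 of 62976) and flagged outliers were left out, the processed intensity was log2-transformed and quantile-normalized over 30 arrays, and of the 55681 probes the brightest on average represented its gene. Symbols came through accessions matched to RefSeq, which named 28331 probes. No probe was saturated.

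Genotypes were compared in R 4.3.3 with limma 3.58.1 in a fit of all genotype and sex groups of a tissue, with Benjamini-Hochberg adjustment over 36717 genes and transcripts at 0.05. The value for both sexes is the mean of the female and male differences. SE is limma's, SD that of mice. The 10 genes, the gene lists and the tests were chosen with earlier results of these data known. Named were the 10 genes, called genes of the lists, the 5 genes per tissue most like the alarmins, and label checks. Other genes were named after their values were seen. A group not well above background on any array gave a bound, with each of its arrays at the higher of its own value and the lowest signal well above background. The analysis was tested on simulated data. The number of arrays limits the precision. Whether same-numbered arrays share an animal was checked on deviations from the group means, and 8 of 15 pairs correlated above 0.1 (median 0.102, range -0.0716 to 0.284). The labels' mouse numbers made the mouse a block in an alternative fit. Further alternatives were a filter on dim probes, 75th percentile scaling, the mean of a gene's probes, normexp background correction, the scores, the slide as a block or within a slide, other sets of arrays in the fit, the threshold, the methods' t-test and leaving out each mouse.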

Additional observations from a re-analysis of the deposited data

Results flagged for a closer look

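Of 40 groups of 5 mice (10 genes, 2 genotypes and 2 tissues, both sexes pooled), 5 held a mouse whose gap to the nearest of the others, as a share of the group's range, was above the critical value of Dixon's test of 0.71, where chance gives about 1 in 20 groups. All 5 were 3×TgAD mice. In the hippocampus of male 5, S100a8 was 6.23 with the next mouse at 8.10 (share 0.774) and S100a9 was 8.50 with the next at 10.23 (share 0.893), both on the low side. In the brain of female 2, Camp was 10.14 with the next at 7.94 (share 0.801) and Ngp was 7.12 with the next at 4.22 (share 0.798), both on the high side. In the hippocampus of male 4, Mmp8 was 4.15 with the next at 2.55 (share 0.866), and none of these Mmp8 values was well above background.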

How the results depend on the processing

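Of the 10 genes, the count that passed between 3×TgAD-BKO and 3×TgAD mice of both sexes in the hippocampus was 0, and it became 1 with normexp background correction, with a filter on dim probes, with all 30 arrays in one fit and at a threshold of 0.1, 3 with slide as a block, 7 within slide 1, 4 with the methods' t-test unadjusted, and 0 to 5 when a mouse was left out (1 without mouse 4, 5 without mouse 9). In the brain it became 2 with slide as a block and within slide 3, 1 with that t-test, and 0 to 2 when a mouse was left out (2 without mouse 9). In males it became 1 (filter), 4 (slide as a block), 6 (within slide 1), 2 (30 arrays), 2 (threshold), 2 (unadjusted t-test) and 0 to 5 (leaving out a mouse, 5 without mouse 9) in the hippocampus, and 2 (slide as a block), 1 (within slide 3), 4 (unadjusted t-test) and 0 to 6 (6 without mouse 9) in the brain, the slide settings resting on 1 BKO male (mouse 0 in the hippocampus, mouse 8 in the brain). In females of the hippocampus it became 1 with the unadjusted t-test, and between 3×TgAD and WT females 3 in each tissue. The sex difference in the hippocampus gave 1 (filter), 1 (slide as a block), 3 (within slide 1), 1 (30 arrays), 1 (threshold) and 0 to 3 (1 without mouse 6, 3 without mouse 9). Between hippocampus and brain the count of 5 became 3 with 75th percentile scaling, 2 with slide as a block and 2 to 7 when a mouse was left out, with 2 without mouse 2, 3, 7 or 10 and 3 without mouse 4, 5, 6, 11 or 12. Adjusted with Benjamini-Hochberg, the t-test gave 0 in each of the 8 genotype comparisons. The cause of these changes was not tested.

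The mouse as a replicate block was fitted for the comparisons between tissues. As a random block (consensus correlation 0.0468) it left 7 of the 10 genes past the threshold between hippocampus and brain, S100a8 (limma adjusted p = 0.0409) and Mmp8 (0.0479) having joined, and 0 in the tissue difference of the BKO change, and as a fixed block, chosen after seeing the data, 7 for the first. No paired analysis was possible for the genotype comparisons because their groups hold different mice.

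These differences changed sign. Elane, 3×TgAD-BKO against 3×TgAD of both sexes, was -0.03 in the hippocampus with the methods' t-test, which pools the sexes, and leaving out a mouse moved it from -0.07 (without 7) to 0.43, in the brain from -0.06 (without 0) to 0.31 and in male brains from -0.15 (without 0) to 0.60. Its sex difference in the brain ran from -0.57 to 0.18 (0.18 without 0, 0.06 without 2). With slide as a block, the 3×TgAD against WT differences were -0.95 and -0.70 for S100a8, -0.99 and -0.74 for S100a9 and -0.96 and -1.41 for Retnlg in hippocampus and brain, and Elane between the tissues was -0.44. JHT minus WT ran, when a mouse was left out, from -0.43 to 3.47 for Camp and -0.93 to 4.49 for Ngp in the hippocampus and from -0.34 to 3.82 for Camp and -0.34 to 6.08 for Ltf in the brain (lowest without mouse 14, highest without 13, and mouse 13 not well above background for Ngp and Ltf), and from -0.08 (without 12) to 0.31 for Elane in the brain. Scaling to the 75th percentile moved the median of all genes between hippocampus and brain from 0 to 0.28, where Elane was 0.56 and the other 9 genes stayed lower in the hippocampus.

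Over the alternatives, 1126 fitted changes kept their side of the threshold, 90 gained it and 29 lost it. Calls over all genes between BKO and 3×TgAD mice ranged from 118 to 4152 around 374 in the hippocampus and from 452 to 4692 around 968 in the brain. In the other comparisons they ranged from 0 to 4890 around 136 (females, hippocampus), 0 to 6484 around 411 (females, brain), 0 to 5646 around 311 (males, hippocampus), 2 to 3053 around 353 (males, brain), 27 to 4946 around 274 and 9 to 4768 around 423 (3×TgAD against WT), 1 to 4906 around 9 and 0 to 356 around 37 (sex), 15 to 2493 around 33 (tissue difference) and 6545 to 24092 around 18301 (tissues). The groups of 2 and 3 mice and, for Ltf, Ngp and Mmp8, signals at background limit these comparisons.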
